A study of Mus musculus with 6 samples.

Results

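Krt6a, Krt6b, Krt16 and Krt17 encode the stress keratins of the epidermis. They were taken by symbol from the gene table of a single-cell RNA data set of mouse skin, in which all 4 were found among 32285 genes. Skin of Balb/c mice was collected 2 days after a 10-day course of epicutaneous sensitization, digested to single cells and run on the 10x Genomics 3' platform, which counts each captured transcript as 1 unique molecular identifier (UMI). There were 3 EC-SAL libraries, whose treatment label is control, and 3 EC-OVA libraries, labelled OVA-sensitized (n = 3 in each group throughout). Both groups carry the same strain, the same tissue label of sensitized skin and the same cell type label, CD4. The labels do not say whether libraries came from separate mice, so a p-value here measures only the spread between libraries, which may be technical. The 4 genes are described in basal, suprabasal, upper-follicle and hair matrix keratinocytes, and EC-OVA is set against EC-SAL within each.

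Keratins form the intermediate filaments of epithelial cells as pairs of a type II and a type I chain. Krt6a and Krt6b are type II chains, and Krt16 and Krt17 are their type I partners. In resting skin these genes are known from the hair follicle and other appendages, whereas the epidermis between follicles relies on Krt5 with Krt14 in its basal layer and on Krt1, Krt2 and Krt10 above it. Wounding, inflammation and barrier damage are known to switch on Krt6, Krt16 and Krt17 in keratinocytes, which is why they serve as markers of activated epidermis.

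On mm10, in GENCODE release M21, all 4 genes lie on the minus strand. Krt6a (ENSMUSG00000058354, chr15:101689910-101694307, 9 exons) and Krt6b (ENSMUSG00000023041, chr15:101676023-101680287, 9 exons) lie close together. Krt16 (ENSMUSG00000053797, chr11:100246091-100248902, 8 exons) and Krt17 (ENSMUSG00000035557, chr11:100256217-100261029, 8 exons) lie close together on another chromosome. The coding sequences of Krt6a and Krt6b are 97.8% identical, with 37 differences over 1662 aligned bases, so the part of the transcript that was read decides whether their UMIs can be told apart. The ends of both coding sequences in the last exon are shown to the stop codon, 5′ to 3′ on the sense strand, with bases that differ between the pair in capitals.
Krt6a, chr15:101690467-101690556: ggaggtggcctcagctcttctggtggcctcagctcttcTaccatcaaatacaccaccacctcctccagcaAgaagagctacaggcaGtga
Krt6b, chr15:101676529-101676621: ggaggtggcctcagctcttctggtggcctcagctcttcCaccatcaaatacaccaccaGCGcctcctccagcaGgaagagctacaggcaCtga
Only 3 bases and 1 insertion of 3 bases separate these stretches. The 3' untranslated regions that follow are 78.9% identical, and the longest run shared by both genes within their last 500 transcript bases has 22 bases. None of the 451 words of 50 bases in that tail of Krt6a or Krt6b occurs in another gene of the annotation. Krt16 and Krt17 are 78.2% identical in coding sequence, and 16.9% and 9.53% of their tail words, respectively, occur in another gene, in both cases including Krt14. The longest such run of Krt16 is shown because Krt14, a very abundant basal keratin, and Krt17 both hold it.
Krt16, chr11:100246625-100246679: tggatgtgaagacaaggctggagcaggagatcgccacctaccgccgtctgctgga
How reads that match several genes were treated is not given in the sources used here, so small amounts of Krt16 and Krt17 in cells rich in Krt14 are uncertain.

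The 6 libraries held 38206 barcodes, of which 24432 cells were kept, with 21743490 to 28049562 UMIs per library. Of 37360 distinct barcodes, 836 occurred in more than 1 library. Barcodes over the mitochondrial limit made up 22.1 to 23.1% in EC-SAL and 14.1 to 15.2% in EC-OVA. Despite the CD4 label, 8879 of the kept cells were epithelial. Clustering without the 4 genes gave, in EC-SAL and EC-OVA, 1327 and 385 basal, 1818 and 767 suprabasal, 224 and 140 upper-follicle and 446 and 280 hair matrix keratinocytes, named from markers. The upper-follicle cluster raised 6 of its 8 markers and also 7 of 11 suprabasal ones, and the hair matrix cluster raised 7 of its 12 markers and also 6 of 7 cycling ones. Basal cells were 9.75 to 9.98% of kept cells in EC-SAL and 3.26 to 3.8% in EC-OVA. Suprabasal cells were 13.3 to 13.7% and 6.59 to 7.36%, upper-follicle cells 1.51 to 1.78% and 1.08 to 1.56%, and hair matrix cells 3.16 to 3.60% and 2.44 to 2.78%.

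Each gene had its own place in the skin, and the levels below are UMIs per 1000000 UMIs (CPM) of a class sum in 1 library. Krt17 was highest in the upper follicle, at 12052 to 16009 CPM in EC-SAL and 9848 to 15275.5 CPM in EC-OVA. Next among the 4 classes came hair matrix (1512 to 2326 and 2173 to 3031 CPM), basal (905 to 1035 and 914 to 1667 CPM) and suprabasal cells (358 to 473 and 457 to 637 CPM). None of these neighbouring ranges overlapped within a group. Krt16 followed another order, with suprabasal cells highest at 1022 to 1220.2 CPM in EC-SAL and 1604 to 2102 CPM in EC-OVA. Basal cells (803 to 899.6 and 1001 to 1193 CPM), hair matrix (484 to 528 and 667 to 913 CPM) and upper follicle (249 to 413 and 319.5 to 629 CPM) followed, again with no overlap between neighbours within a group.

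Among the 4 classes, Krt6a was highest in the upper follicle, at 268 to 382 CPM in EC-SAL and 261 to 264 CPM in EC-OVA. In EC-SAL it was next in basal cells (25.4 to 35.2 CPM), then in suprabasal cells (15.7 to 22.9 CPM) and then in hair matrix (1.65 to 11.4 CPM), with no overlap between neighbours. In EC-OVA suprabasal cells held 44.0 to 62.5 CPM and basal cells 12.4 to 46.0 CPM, which overlapped, and hair matrix held 1.36 to 25.4 CPM, which overlapped the basal range. Krt6b was scarce, and suprabasal cells held 28 of its 41 UMIs in EC-SAL and 54 of its 64 UMIs in EC-OVA. The other 3 classes held at most 5 Krt6b UMIs in a group, and the 5 in the EC-SAL upper follicle all came from 1 library. Where a class sum held no Krt6b UMI, the count of 0 allows up to 2.34 to 6.90 CPM, by 3 counts, which covers counting error only.

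**Figure D1:**
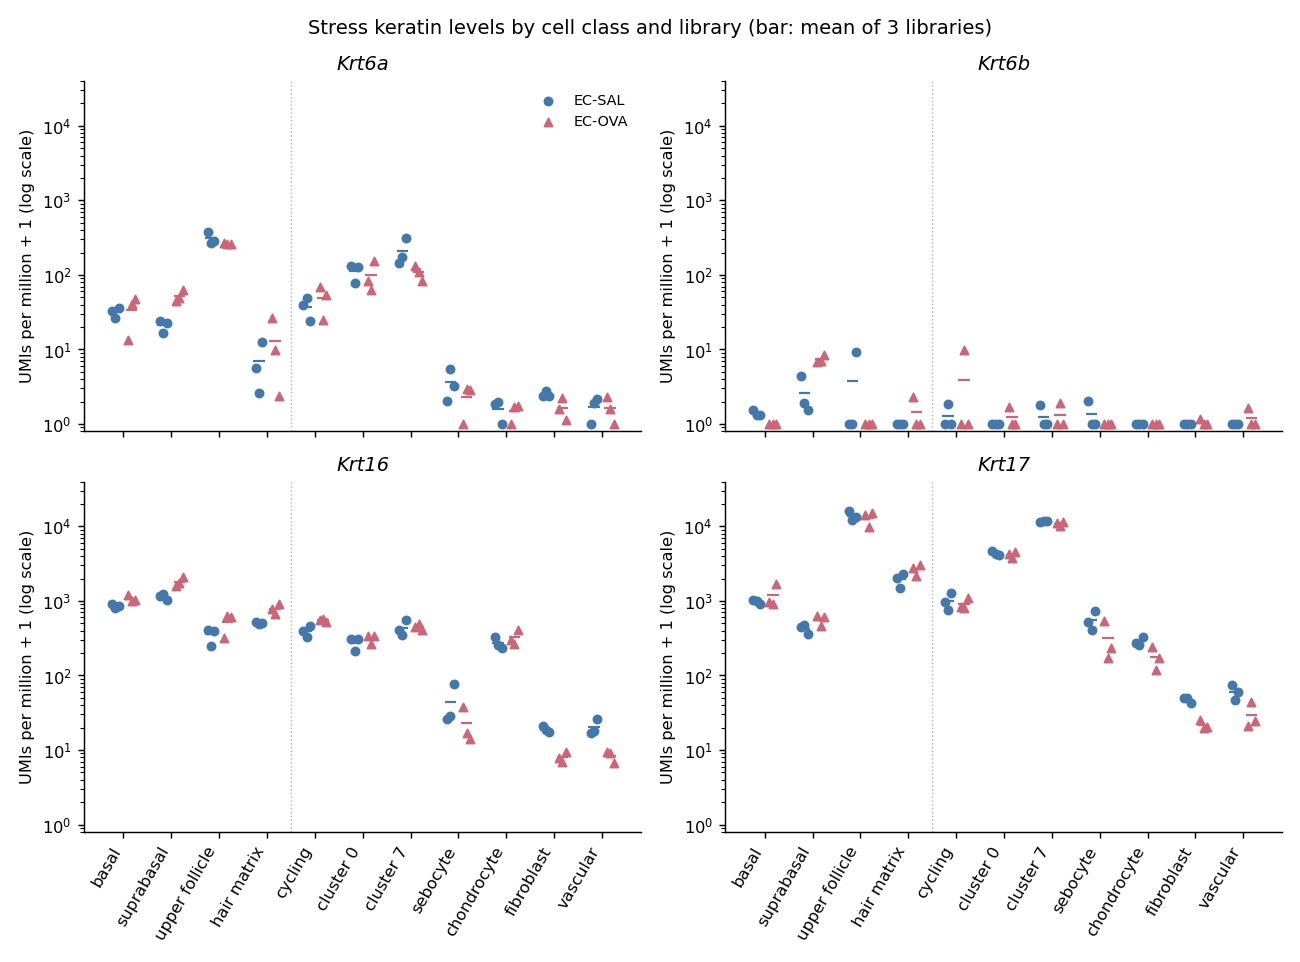
Level of each stress keratin in CPM, plus 1, on a log axis, by cell class; each point is 1 library, bars are means of 3 libraries, and the dotted line parts the 4 keratinocyte classes from other classes. Among the 4 classes left of the dotted line, Krt17 and Krt6a peak in the upper follicle and Krt16 in suprabasal cells, and the EC-OVA points lie above the EC-SAL points in suprabasal cells for Krt6a, Krt6b and Krt16.

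In suprabasal keratinocytes, the differentiating layers above the basal layer, Krt6a and Krt16 rose in EC-OVA. Of 9303 genes tested there with edgeR's quasi-likelihood test, 1.37% passed an adjusted p of 0.05 in either direction and 1.1% passed it as rises. Krt6a was at 22.9, 15.7 and 21.8 CPM in EC-SAL libraries 1 to 3 and at 44.0, 47.4 and 62.5 CPM in EC-OVA libraries 1 to 3. Every EC-OVA library lay above every EC-SAL library, and the means were 20.1 ± 3.84 and 51.3 ± 9.83 CPM (SD, n = 3 each). The log2 change of Krt6a was 1.39 ± 0.16 (SE; edgeR, adjusted p = 0.00263).

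Krt16, a type I chain known to pair with Krt6, was at 1147, 1220.2 and 1022 CPM in EC-SAL and at 1604, 1732 and 2102 CPM in EC-OVA. The groups did not overlap, and the means were 1129.8 ± 100.1 and 1813 ± 259 CPM (SD, n = 3 each). Its log2 change was 0.73 ± 0.10 (SE; edgeR, adjusted p = 0.00486). Krt6b was at 3.36, 0.94 and 0.54 CPM in EC-SAL and at 5.80, 6.07 and 7.33 CPM in EC-OVA. These values did not overlap either, as was the case for 20% of the genes tested, but EC-SAL library 1 alone gave 20 of the 28 control UMIs. The log2 difference of Krt6b, 1.98 ± 0.46, missed the threshold (edgeR, adjusted p = 0.0617), and without EC-SAL library 1 it was 3.09 with an adjusted p of 0.00855.

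Krt17, which is also a known partner of Krt6, was at 442, 473 and 358 CPM in suprabasal cells of EC-SAL and at 637, 457 and 608 CPM in EC-OVA. EC-OVA library 2 lay inside the EC-SAL range. The log2 difference was 0.47 ± 0.11 (SE), with an adjusted p of 0.0641 in edgeR and 0.0440 in DESeq2. Without EC-OVA library 2 it was 0.58 with an adjusted p of 0.0112. Suprabasal cells thus gave calls for 2 of the 4 genes, and the other two had positive differences on the other side of the threshold.

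**Figure D2:**
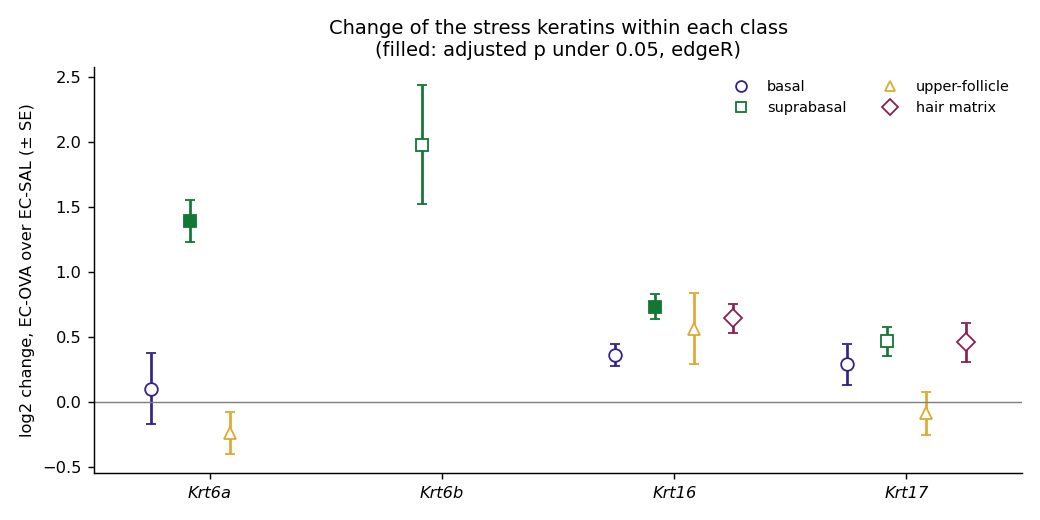
Log2 change of each stress keratin from EC-SAL to EC-OVA within each keratinocyte class, with standard error bars; filled points passed an adjusted p of 0.05 in edgeR. Only Krt6a and Krt16 in suprabasal cells are filled, at 1.39 and 0.73, and genes left out by the filter on low counts have no point.

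Markers of dendritic cells also differed between the suprabasal sums. The 7 dendritic markers summed to 25.4 to 33.0 CPM in EC-SAL and to 99.7 to 308 CPM in EC-OVA, with a UMI of 4 to 5 and 4 to 6 of them. All 4 that could be tested rose, Cd74, H2-Aa and H2-Ab1 of antigen presentation and Cd207 of Langerhans cells, while Flt3 and Itgax had no UMI in EC-SAL and at most 2 in EC-OVA. No UMI of any dendritic marker was held by 562, 467 and 438 of 684, 587 and 547 suprabasal cells in EC-SAL. In EC-OVA these were 181, 188 and 175 of 270, 257 and 240 cells. A deeper cell is more likely to hold such a UMI, so this choice depends on depth. The part of dendritic cells in the rises was not tested. In the cells without such a UMI the log2 change was 1.44 for Krt6a (edgeR, adjusted p = 0.00168) and 0.87 for Krt16 (adjusted p = 0.00177). In the same cells, a choice made after the data were seen, the log2 difference was 0.66 for Krt17 (adjusted p = 0.0215) and 2.13 for Krt6b (adjusted p = 0.0257). How many of all genes passed in these cells is not given here. Over the 17 alternatives 13 to 452 genes passed in suprabasal cells. Upper-follicle markers summed to 2979 to 3091 CPM in EC-SAL and 3435 to 3778 CPM in EC-OVA without overlap. Of these 8 markers 6 could be tested, of which Alox12e and Teddm3 rose and 0 fell. Their log2 values went both ways, from -1.03 to 0.94. Basal markers summed to 5049 to 5104 and 3961 to 4313 CPM, and fibroblast markers to 107 to 135 and 105.4 to 272 CPM. The part of these 3 lists in the results was not tested.

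The suprabasal class joined 3 clusters whose proportions differed between the groups. Cluster 5, led by Dnase1l3, Serpinb12, Slurp2 and Sprr2d, made up 47.0 to 48.0% of the class in EC-SAL and 55.2 to 60.4% in EC-OVA. Cluster 4, led by Gadl1, Serpinb12, Tmprss4 and Sprr1b, made up 46.5 to 47.0% and 30.0 to 35.6%. Within cluster 5, Krt16 was at 1473, 1533 and 1272 CPM in EC-SAL and 1857, 2014 and 2496 CPM in EC-OVA. Within cluster 4 it was at 768, 861 and 731 CPM and 1172, 1138 and 1244 CPM. The groups thus did not overlap in Krt16 in either cluster, nor in the small cluster 10 (769 to 1114 and 1218 to 1971 CPM). Of the genes tested in suprabasal cells, 12.9% did not overlap in cluster 5, 16.1% in cluster 4 and 8.15% in cluster 10.

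Krt6a in cluster 5 was at 29.4, 14.7 and 25.2 CPM in EC-SAL and 50.01, 51.2 and 79.8 CPM in EC-OVA, and in cluster 4 at 14.2, 16.5 and 18.3 CPM and 31.9, 41.3 and 22.5 CPM. The groups did not overlap in these 2 clusters, whereas in cluster 10 they did, at 9.26 to 45.5 and 19.1 to 61.0 CPM from 10 UMIs in each group. Krt6b sat mainly in cluster 5, which held 17 of its 28 UMIs in EC-SAL and 48 of 54 in EC-OVA. When cells were drawn so that every library had the same mix of clusters, the log2 change was 1.54 for Krt6a (edgeR, adjusted p = 0.00303) and 0.62 for Krt16 (adjusted p = 0.0293).

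**Figure D3:**
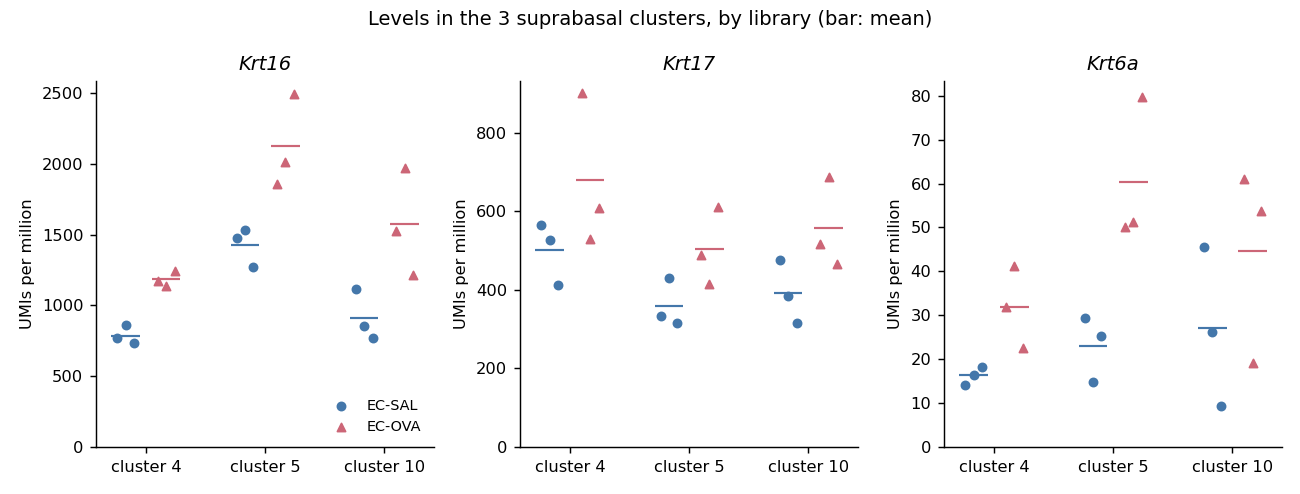
Krt16, Krt17 and Krt6a in the 3 suprabasal clusters in CPM; each point is 1 library and bars are means of 3. Krt16 in EC-OVA lies above EC-SAL in every cluster, while Krt17 overlaps between the groups in each.

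In basal keratinocytes, which sit on the basement membrane, none of the 3 stress keratins that could be tested passed the threshold. Only 0.0925% of the 8648 genes tested passed it there, 8 genes, so the basal comparison made few calls for any gene. Krt16 was at 899.6, 803 and 841 CPM in EC-SAL and at 1193, 1001 and 1027 CPM in EC-OVA, without overlap, as for 14.8% of the genes tested. Its log2 difference was 0.36 ± 0.08 (SE; edgeR, adjusted p = 0.124), against 0.0481 in DESeq2. Krt17 was at 1035, 994 and 905 CPM in EC-SAL and 969.9, 914 and 1667 CPM in EC-OVA. EC-OVA library 3 stood apart, and without it the log2 difference of Krt17 turned from 0.29 ± 0.16 to -0.02. Krt6a was at 31.9, 25.4 and 35.2 CPM and at 12.4, 39.9 and 46.0 CPM, with EC-OVA libraries on both sides of the EC-SAL range and a difference of 0.10 ± 0.28 (adjusted p = 0.954) that turned negative without EC-OVA library 2 or 3 or EC-SAL library 2.

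Most basal Krt16 came from 1 of the 2 basal clusters. Cluster 2, led by Mmp3 and Mmp13, which encode matrix metalloproteases, held 970.3 to 1072 CPM of Krt16 in EC-SAL and 1192 to 1329 CPM in EC-OVA. Cluster 11, led by C2cd4b, Fcgbp and Dlk2, held 134 to 208 and 41.6 to 275 CPM. Krt6a showed the same split in EC-SAL, at 31.6 to 42.6 CPM in cluster 2 and 1.48 to 7.29 CPM in cluster 11. Cluster 2 was 76.1 to 77.0% of the basal class in EC-SAL and 81.8 to 84.9% in EC-OVA. Dendritic markers summed to 27.2 to 36.7 CPM in basal cells of EC-SAL and 55.5 to 124 CPM in EC-OVA, with Flt3 and Ccr7 at 0 in both, and in cells without any of them the Krt16 difference was 0.47 (edgeR, adjusted p = 0.110). With the same mix of clusters in every library the basal Krt16 difference was 0.26 (edgeR, adjusted p = 0.408).

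In the upper follicle, where the hair canal opens to the surface, none of the 3 genes tested passed the threshold. Here 0.0177% of 5652 genes passed, which is 1 gene. Krt17 was at 16009, 12052 and 13296 CPM in EC-SAL and 14072, 9848 and 15275.5 CPM in EC-OVA, where the ranges overlapped but EC-OVA library 2 lay below every EC-SAL library, and the log2 difference was -0.08 ± 0.17 (edgeR, adjusted p = 0.999). Krt6a was at 382, 268 and 281 CPM in EC-SAL and 264, 261 and 263 CPM in EC-OVA. The EC-OVA values were all lower by a small margin, as happened without overlap in either direction for 8.6% of the genes tested, and the difference was -0.24 ± 0.16 (adjusted p = 0.999). Krt16 was at 413, 249 and 399 CPM and at 319.5, 629 and 609.7 CPM. EC-OVA library 1 lay within the EC-SAL range while the other two lay above it, and the log2 difference was 0.57 ± 0.27 (adjusted p = 0.999). That library also held 1526 CPM of hair matrix markers in its upper-follicle sum, against 23.8 to 66.9 CPM in the other 5 libraries, and their part in the Krt16 value was not tested.

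In hair matrix keratinocytes, the dividing cells that build the hair and its inner sheath, 0 of 7282 genes (0%) passed edgeR's threshold, 447 genes had an unadjusted p under 0.05, and DESeq2 called 3. Krt16 was at 528, 484 and 511 CPM in EC-SAL and 788, 667 and 913 CPM in EC-OVA, without overlap, as for 10.6% of the genes tested. Its log2 difference of 0.64 ± 0.11 was close in size to the suprabasal one, with an adjusted p of 0.381 in edgeR and 0.0105 in DESeq2. Keeping the cells with high doublet scores lowered it to 0.38. Krt17 was at 2001, 1512 and 2326 CPM in EC-SAL and 2789, 2173 and 3031 CPM in EC-OVA, and EC-OVA library 2 lay inside the EC-SAL range (log2 difference 0.46 ± 0.15, adjusted p = 0.708). Krt6a, with 20 and 27 UMIs in all, was too low to be tested here. Hair matrix markers summed to 3042 to 7867 CPM in EC-SAL and 1392 to 4755 CPM in EC-OVA in these cells, basal markers to 5325 to 5915 and 6420.1 to 7404 CPM and fibroblast markers to 1066 to 1582 and 689.7 to 965 CPM. The basal and fibroblast sums did not overlap between the groups, and the part of these markers in the Krt16 value was not tested.

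Whether the change of a gene differed between the 4 classes was tested in 1 fit over all class sums with the library as a block, in which 0.11% of 9052 genes passed. For Krt6a the joint test gave an adjusted p of 0.0631, for Krt17 0.589 and for Krt16 0.926. Against basal cells, the change of Krt6a was larger by 1.31 ± 0.36 log2 units in suprabasal cells, which did not pass (edgeR, adjusted p = 0.666). The widest gap for Krt6a lay between the upper follicle and suprabasal cells, at -1.65 ± 0.30 (adjusted p = 0.0249), a contrast chosen after the values were seen, and 0.0663% of genes passed it. It lost the threshold without any 1 of the 3 EC-SAL libraries, with adjusted p of 0.472, 0.107 and 0.0973. For Krt16 the same contrast was -0.16 ± 0.23 (adjusted p = 0.934), so a difference between classes in its change was not shown.

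Over all kept cells, where changes within classes and changes in cell proportions add up, Krt16, Krt17 and Krt6a were lower in EC-OVA. Krt16 was at 468 ± 10.7 CPM in EC-SAL and 397 ± 46.9 CPM in EC-OVA, Krt17 at 1657 ± 41.8 and 1306 ± 180 CPM and Krt6a at 38.5 ± 5.26 and 27.7 ± 4.05 CPM (SD, n = 3 each). Krt6b was higher in EC-OVA, at 0.51 ± 0.33 and 0.96 ± 0.04 CPM. None of the 4 overlapped between groups, as was so for 50.1% of 9929 genes over all kept cells. These totals are descriptions, set beside the lower share of keratinocytes among EC-OVA cells given above. Suprabasal cells held 51.7% of all Krt16 UMIs in EC-SAL and 57.6% in EC-OVA, while basal cells held 23.5% and 12.6%.

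Of all Krt6a UMIs, suprabasal cells held 11.3% in EC-SAL and 23.4% in EC-OVA, with 13.5% and 6.99% of the kept cells. The upper follicle held 20.2% and 22.2% of Krt6a UMIs with 1.66% and 1.28% of cells. The largest Krt6a source in EC-SAL was the unnamed cluster 7, with 26.2% (17.3% in EC-OVA), and cluster 0 held 19.6% and 19.1%. The upper follicle also held 20.7% and 23.8% of Krt17 UMIs. Of Krt17, 33.9% and 35.8% came from cluster 7, an unnamed epithelial cluster led by Tagln, Slc7a8 and Basp1 that raised 6 of 10 basal and 5 of 9 bulge markers. Cluster 0, led by Akr1c18 and Ces1d and also unnamed, held 17.5% and 17.4% of Krt17.

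**Figure D4:**
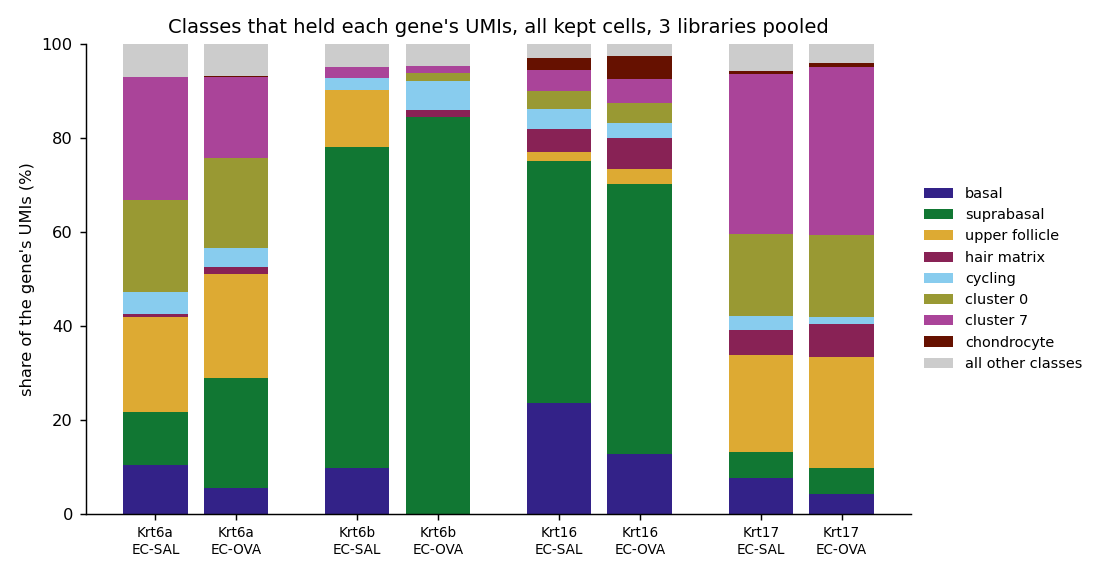
Share of each gene's UMIs that came from each cell class, in percent, pooled over the 3 libraries of a group. Suprabasal cells give most Krt16 and Krt6b, clusters 7 and 0 and the upper follicle give most Krt17, and the suprabasal part of Krt6a is 11.3% in EC-SAL and 23.4% in EC-OVA.

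To compare how many cells carried each gene, every cell was thinned to 2000 UMIs and shallower cells were left out (74 of 1818 suprabasal cells in EC-SAL and 40 of 767 in EC-OVA). In suprabasal cells, at least 1 Krt16 UMI was found in 46.1, 50.6 and 48.9% of EC-SAL cells and in 63.3, 58.9 and 59.1% of EC-OVA cells. Krt6a was found in 2.58, 2.86 and 3.42% and in 5.86, 6.10 and 5.78%. Neither gene overlapped between the groups, but the exact two-sided permutation test of 3 against 3 libraries cannot go below p = 0.1, and each had that p, 0.267 after adjustment over the genes and classes. Unthinned, the suprabasal shares were 63.2 ± 1.94 and 71.7 ± 3.32% for Krt16 and 5.77 ± 0.875 and 10.7 ± 0.855% for Krt6a (SD, n = 3 each). Median UMIs per suprabasal cell were 8353.5 to 9858 in EC-SAL and 9207 to 11224 in EC-OVA.

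Suprabasal Krt17 was found in 33.8 ± 3.15% of thinned EC-SAL and 37.1 ± 1.77% of thinned EC-OVA cells, but in 58.8 ± 1.04 and 55.2 ± 2.50% of unthinned ones (SD, n = 3 each), so no direction is read from it. Krt6b was found in 5 of 1744 and 7 of 727 thinned suprabasal cells. In the upper follicle Krt17 was near its ceiling, at 95.5 ± 2.77 and 96.4 ± 3.42%, and Krt6a stood at 23.9 ± 2.53 and 24.6 ± 2.56% (SD, n = 3 each). Upper-follicle Krt16 was found in 26.6, 18.6 and 15.4% of EC-SAL cells and 31.8, 37.5 and 47.1% of EC-OVA cells, without overlap (exact permutation p = 0.1, adjusted 0.267). Basal Krt16 (45.4 ± 1.49 and 50.9 ± 3.13%) and hair matrix Krt16 (31.1 ± 4.37 and 40.9 ± 6.22%) likewise did not overlap between groups (SD, n = 3 each; exact permutation p = 0.1 for both). How many of all genes did not overlap in such shares of cells is not given here. In CPM this held for 8.6 to 20% of the genes tested in the 4 classes. No Krt6b UMI was left in 203 and 135 thinned upper-follicle cells, although the EC-SAL class held 5 before thinning. These counts of 0 allow up to 1.48 and 2.22% of cells with a UMI at this depth and put no limit on cells expressing the gene.

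Free RNA in the suspension gives a baseline, read in cells that should lack these genes. Fibroblasts held a Krt16 UMI in 3.29 ± 0.68% of thinned cells in EC-SAL and 1.53 ± 0.59% in EC-OVA, Krt17 in 8.30 ± 0.90 and 3.66 ± 0.38% and Krt6a in 0.29 ± 0.20 and 0.14 ± 0.05% (SD, n = 3 each). Vascular cells held Krt16 in 2.35 ± 1.51 and 1.78 ± 1.18% and Krt17 in 10.4 ± 3.64 and 5.03 ± 0.94%. The shares of Krt16 and Krt17 in the 4 keratinocyte classes were several times those of fibroblasts at the same 2000 UMIs. Chondrocytes, another class outside the epithelium, held a Krt16 UMI in 11.7 to 15.7% of EC-SAL and 17.6 to 19.1% of EC-OVA cells, close to the 15.4 to 26.6% of the EC-SAL upper follicle. The fibroblast and vascular means of Krt16 and Krt17 were lower in EC-OVA. Median depth before thinning was 4246 to 4623 UMIs in EC-SAL fibroblasts and 5659.5 to 5967 in EC-OVA fibroblasts. The Krt6a share in hair matrix, 1.03 ± 0.59 and 0.72 ± 0.63%, was 4 of 408 and 2 of 260 cells.

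**Figure D5:**
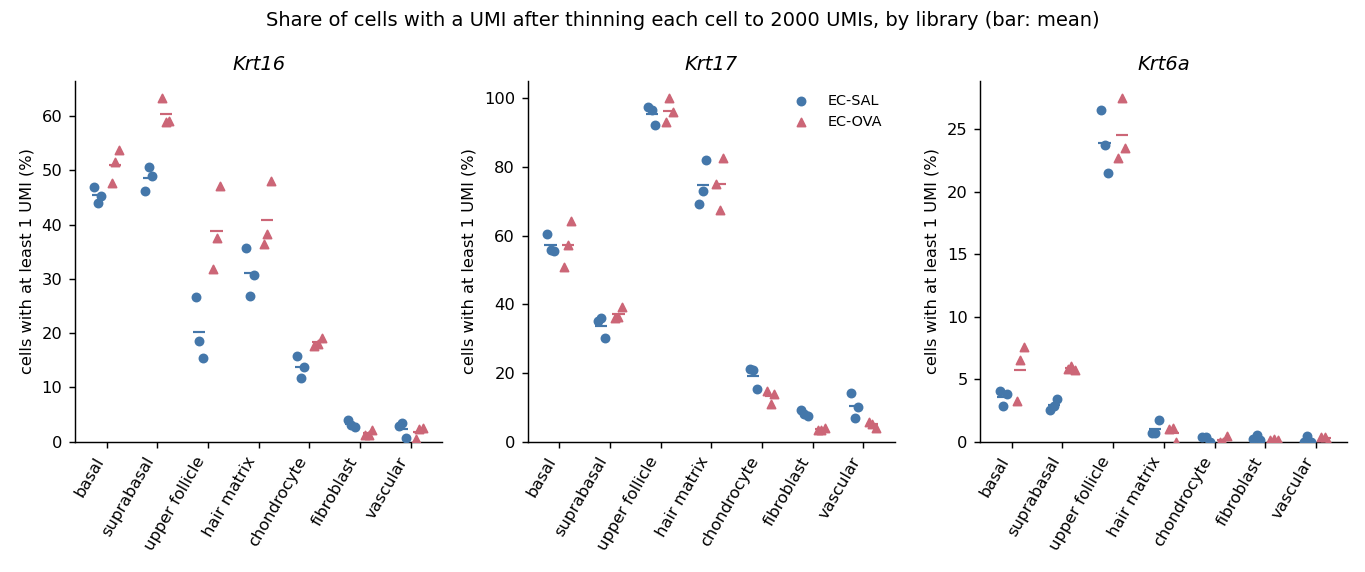
Percent of cells with at least 1 UMI of Krt16, Krt17 or Krt6a after thinning each cell to 2000 UMIs; each point is 1 library and bars are means of 3. Suprabasal Krt16 and Krt6a shares of EC-OVA lie above those of EC-SAL, at 58.9 to 63.3% and 5.78 to 6.10%, and fibroblasts and vascular cells show the baseline.

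Within suprabasal cells, and likewise within basal cells, Krt16 was found more often in cells with its partner Krt6a than in cells without it. Among thinned suprabasal EC-SAL cells, Krt16 was present in 35 of 51 cells with Krt6a (68.6%) and in 47.8% of cells without it. In EC-OVA it was in 33 of 43 (76.7%) and 59.5%. In basal cells it was in 28 of 46 (60.9%) and 44.85% in EC-SAL and in 14 of 21 (66.7%) and 49.9% in EC-OVA. The suprabasal clusters differed in Krt16 and Krt6a level, as given above, and their part in this was not tested. Pooled over libraries, Krt17 was found in 35.3 and 37.2% of suprabasal cells with Krt6a and in 33.9 and 37.0% of those without it. The EC-OVA libraries differed widely, at 40, 13.3 and 61.5% of cells with Krt6a. In basal cells Krt17 was in 35 of 46 and 10 of 21 cells with Krt6a (76.1 and 47.6%) and in 56.7 and 57.6% of cells without it. The EC-OVA libraries were at 25, 55.6 and 50% of these few basal cells with Krt6a. The type I genes Krt16 and Krt17 were found together, with Krt17 in 41.1% of EC-SAL suprabasal cells with Krt16 against 27.2% without it, and in 44.5% against 25.4% in EC-OVA. In the upper follicle, Krt17 was in 48 of 49 and 33 of 33 cells with Krt6a, but also in 94.8% and 95.1% of those without. Krt16 there was in 20.4 and 36.4% of cells with Krt6a and in 20.8 and 40.2% of cells without it. Detection rests on few UMIs per cell, and cells within a library are no replicates, so these are descriptions.

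For the spread over single suprabasal cells, the top 10% of thinned cells held 51.5% of Krt16 UMIs on average in EC-SAL and 43.2% in EC-OVA, and the highest cell had 30 and 35 of its 2000 UMIs from Krt16. Upper-follicle Krt17 had a median of 22 and 18 UMIs per thinned cell, with 31.9 and 34.5% of its UMIs in the top 10% of cells. Such a share rises as counts fall, so genes and groups of unequal level are not compared by it.

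Among the other epidermal and follicular keratins, 12 of 17 could be tested in suprabasal cells, where 1 rose and 0 fell, with a median log2 change of -0.0054 against 0.0017 over all genes tested. The one that rose was Krt1, a type II keratin of the differentiating layers, at 3454 ± 92.5 CPM in EC-SAL and 5114 ± 559 CPM in EC-OVA (SD, n = 3 each; log2 change 0.62, edgeR, adjusted p = 0.00672). Krt14, the basal type I keratin, was at 3211 ± 54.1 and 2419.7 ± 388 CPM in the same sums (log2 difference -0.36, adjusted p = 0.0676). In basal cells 9 were tested and 1 fell, Krt2, another keratin of upper layers (-0.55, adjusted p = 0.0277). In the upper follicle 11 were tested and Krt2 fell from 467 ± 266 to 51.9 ± 15.9 CPM (SD, n = 3 each; -3.12, edgeR, adjusted p = 0.0348), and in hair matrix none of 9 passed. Of all genes tested, 1.37% passed in suprabasal, 0.0925% in basal and 0.0177% in upper-follicle cells, where Krt2 was the 1 gene called.

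Of 29 genes known from activated and wound-edge keratinocytes, 19 could be tested in suprabasal cells. Sprr1a and Sprr1b, precursors of the cornified envelope, rose by 0.56 and 0.41 log2 units (edgeR, adjusted p = 0.00707 and 0.0111), 0 fell, and the median log2 change of the list was 0.26, against 0.0017 over all genes. The 2 of 19 that rose stand beside the 1.1% of all genes that did. Il1b was at 4.29 ± 0.35 and 7.85 ± 0.76 CPM (SD, n = 3 each; 0.92, adjusted p = 0.0622) and Il1rn, the receptor antagonist of interleukin-1, had a difference of 0.33 (adjusted p = 0.0774). In basal, upper-follicle and hair matrix cells 0 of 17, 17 and 15 tested genes passed, with list medians of 0.19, 0.01 and 0.02 against all-gene medians of 0.0055, 0.0056 and -0.00046.

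Of the transcription factors and signalling genes linked to stress keratin promoters, 1 of 22 rose in suprabasal cells, Cebpb, which encodes a factor of differentiation and inflammation (0.33, adjusted p = 0.0423). The log2 values of the list went both ways, from -0.30 to 0.63 with a median of -0.02. In 10 of the 22 genes the groups did not overlap, against 20% of all genes tested, and 6 of 22 had an unadjusted p under 0.05, as had 1330 of the 9303 genes tested. Nfkbiz had a difference of -0.30 (adjusted p = 0.0552) and Jun one of -0.23 (adjusted p = 0.173). None of 22, 20 and 21 passed in basal, upper-follicle and hair matrix cells. Of the NRF2 targets, genes of the oxidative stress response, 8 of 10 were tested in suprabasal cells and Srxn1, a sulfiredoxin, rose (0.71, adjusted p = 0.0277; list median 0.17). These single rises in 22 and 8 genes stand beside the 1.1% of all genes that rose in suprabasal cells. Hmox1 (0.79, adjusted p = 0.108), Sprr2d (0.51, adjusted p = 0.240) and Gsr (-0.27, adjusted p = 0.395) did not pass. None of 7, 8 and 5 NRF2 targets passed in the other 3 classes.

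Cell cycle genes gave no call in any of the 4 classes, with 9 to 14 of 14 tested. In suprabasal cells Cdk1 and Birc5, of mitosis, had differences of -1.37 (edgeR, adjusted p = 0.171) and -1.31 (adjusted p = 0.228). The 9 genes tested there went both ways, up to 0.38, with a list median of 0.06 against 0.0017 over all genes. Genes known to rise during tissue dissociation were mixed in suprabasal cells, with a list median of -0.04. Dnajb1 and Dusp1 rose by 0.34 and 0.36 log2 units, Atf3 and Ier2 fell by 0.37 and 0.38, and 12 of 16 did not pass. These 2 rises and 2 falls in 16 genes stand beside the 1.37% of all genes tested that passed there in either direction. None of 16, 16 and 15 passed in the other 3 classes. The largest rises in suprabasal cells by the naming rule were Cd74 (2.98), Sprr2a3, a small proline-rich envelope protein (1.52), and Krt6a itself. The largest falls were Cxcl2 (-1.05) and Cxcl1 (-0.96), which encode neutrophil chemokines, and Sgk1, a kinase (-0.92). In basal cells Sprr2a3 rose by 2.05, Clca3a2 by 1.15 and Ggct by 0.82.

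Genes whose levels followed each stress keratin most closely were ranked by Pearson correlation of log2(CPM + 1) over the 24 sums of 4 classes and 6 libraries, among 4905 genes. These sums share libraries and differ mainly by class, so the coefficients describe patterns over classes. Krt17 was followed by Ier3 (r = 0.97), Sox9 (0.95), a transcription factor of hair follicle stem cells, Dbndd2 (0.95), Mapkapk2 (0.95) and Malt1 (0.94), all highest in the upper follicle by mean CPM. Krt6a was followed by Barx2, Defb1, Por, Cstb (0.92 each) and Xbp1 (0.91), all likewise highest there.

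Krt16 had weaker followers, Polr1d and Dnajb4 (0.87 each), Wdr61 and Sema4b (0.85 each). Krt6b, with few UMIs, was followed by Ell2 (0.76), Gnai3 (0.75), Chmp5 (0.74) and Atp6v1e1 (0.73). Among the stress keratins themselves the coefficient was -0.82 for Krt16 with Krt17, 0.58 for Krt6a with Krt17, -0.32 for Krt6a with Krt16 and 0.49 for Krt6b with Krt16. Krt16 and Krt17 thus had opposite orders over the 4 classes, while Krt6a shared its peak with Krt17.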

How the data were processed

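Single-cell RNA was measured in 6 libraries, 3 EC-SAL and 3 EC-OVA by title. The authors deposited counts of UMIs per gene and barcode, made with Cell Ranger (matrix headers name version 3.1.0, per the file headers) and STAR on mm10, per the submitters' processing notes. Their annotation release is not given in the sources used here.

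Cells were kept at 300 genes or more and with mitochondrial UMIs at 15% or less. Scrublet's own threshold marked only 0.037 to 0.234% of cells, so the highest scores at 0.8% per 1000 barcodes were removed. Cells were clustered (scanpy 1.11.5, 2000 variable genes, 40 components, 20 neighbours, Leiden at resolution 1.0, then 0.8 within epithelium, seed 1), with the 4 genes left out. This gave 28 first-level and 13 epithelial clusters. A class needed 50% of its markers, and at least 3 (second level: 5), raised 2-fold over the median cluster in 25% of cells, and clusters with more markers of another class among their top 10 genes stayed unnamed; this rule was set after the clusters were seen. Cluster 7, cluster 0 and cluster 9 (median 1695 UMIs) stayed unnamed.

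UMIs were summed per class and library (basal 933793 to 3608309 UMIs per library, suprabasal 2638026 at least, upper follicle 435048 at least) and tested with edgeR 4.0.16 (quasi-likelihood, TMM, filterByExpr, R 4.3.3), with Benjamini-Hochberg adjustment over all genes tested and a threshold of 0.05. DESeq2 1.42.0 was an alternative, as were RLE size factors, no filter, the replicate block, each library left out, a 10% mitochondrial limit, doublets kept, cells of at least 2000 UMIs, the 4 genes used in clustering, resolution 1.5 and an equal mix of clusters. Cells without a dendritic marker, the upper-follicle and suprabasal contrast and leaving libraries out of the shares were added after the data were seen. Shares of cells were tested by an exact two-sided permutation test. The edgeR fit within a class was checked on counts simulated from suprabasal means and library sizes.

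The genes, lists and rules were chosen with earlier results of these data known. Named genes are the 4 stress keratins, the 5 genes most correlated with each (mean of at least 20 CPM), up to 4 members of each list with the smallest adjusted p, and the 3 largest rises and falls per class past the threshold without overlap (at least 50 CPM in the higher group), with predicted, ribosomal and mitochondrial genes left out. Some genes that this rule names are not reported here. Marker genes of the dendritic and fibroblast lists were named beside results they moved with. Coordinates and transcript sequences are from GENCODE release M21 on mm10.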

Additional observations from a re-analysis of the deposited data

Results flagged for a closer look

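The change of Krt6a differed between 2 of the 4 keratinocyte classes by a test of the difference itself. It was lower in the upper follicle than in suprabasal cells by 1.65 log2 units (-1.65 ± 0.30, edgeR, adjusted p = 0.0249), from -0.24 ± 0.16 and 1.39 ± 0.16 within the classes. In the upper follicle all 3 EC-OVA libraries (261 to 264.3 CPM) were below all 3 EC-SAL libraries (268.2 to 382 CPM) by a narrow gap, and in suprabasal cells all 3 were above. Such groups without overlap made up 8.6% and 20% of the genes tested in these classes. This pair of classes was picked out of the 6 possible pairs after the values were seen. The adjusted p was 0.472, 0.107 and 0.0973 when EC-SAL library 1, 2 or 3 was left out, 0.416 without the library block, 0.151 with doublets kept and 0.0631 in the joint test over the 4 classes.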

How the results depend on the processing

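The suprabasal calls of Krt6a (log2 change 1.23 to 1.54) and Krt16 (0.62 to 0.87) held under all 17 alternatives. The labels do not say whether same-numbered EC-SAL and EC-OVA libraries are pairs. Such libraries correlated from -0.09 to 0.33 in their deviations over genes. Libraries with different numbers correlated from -0.27 to 0.25, so these values do not decide the pairing. With the replicate block, suprabasal Krt6a was at 1.39 (adjusted p = 0.00112) and Krt16 at 0.73 (0.00438), no member's call changed, and the calls over all genes went from 8 to 27 in basal, 1 to 2 in upper-follicle and 0 to 3 in hair matrix cells.

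Some differences passed the threshold only under an alternative. Basal Krt16 did so with DESeq2 (0.36, adjusted p = 0.0481), without the filter on low counts (0.34, 0.0226) and with doublets kept (0.52, 0.0375). Hair matrix Krt16 did so with DESeq2 (0.65, 0.0105), without the filter (0.62, 0.00622), at resolution 1.5 (0.79, 0.0448) and without EC-OVA library 2 (0.0409; leave-one-out range 0.56 to 0.71). Suprabasal Krt17 did so with DESeq2 (0.47, 0.0440), without the filter (0.45, 8.47e-07), in cells without a dendritic marker (0.66, 0.0215) and without EC-OVA library 2 (0.0112; range 0.37 to 0.58). Suprabasal Krt6b did so without the filter (1.97, 1.55e-06), in cells without a dendritic marker (2.13, 0.0257) and without EC-SAL library 1 (0.00855; range 1.59 to 3.09).

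Directions turned for differences that had not been called. Basal Krt6a became negative at a 10% mitochondrial limit (-0.019), with the genes used in clustering (-0.50) and at resolution 1.5 (-0.030), and ranged from -0.16 to 0.51 with libraries left out. Basal Krt17 ranged from -0.017 to 0.43 with libraries left out, and upper-follicle Krt17 from -0.21 to 0.053, and was 0.046 with doublets kept. In percentage points, the difference in share of Krt17-positive cells was -0.33 unthinned in basal cells (range with libraries left out -3.20 to 3.47). In hair matrix it was -1.01 unthinned and -0.40 at 3 UMIs (-3.57 to 4.06), and in suprabasal cells -3.55 unthinned. In the upper follicle it was -0.57 thinned to 1000, -0.49 unthinned and -0.87 at 3 UMIs (-0.83 to 2.58). For Krt6a in the upper follicle the range was -0.82 to 1.95, and for suprabasal Krt6b the difference was -0.051 at 3 UMIs.

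The joint test over classes passed without the filter for Krt17 (5.14e-11) and Krt6a (1.44e-15). Without the filter 196 of 18365 genes passed it, against 10 of 9052 with the filter. The upper-follicle minus suprabasal difference of Krt17 was -0.56 ± 0.18 with the filter and -0.53 ± 0.08 (SE) without it, so mainly the standard error moved. For Krt6a the joint test also passed in cells of at least 2000 UMIs (0.0493), at resolution 1.5 (0.0037) and without EC-OVA library 1 or 3 (range with libraries left out 0.00314 to 0.466). The upper-follicle minus suprabasal difference of Krt6a lost its call without the library block (-1.64, 0.416), with doublets kept (-1.43, 0.151) and with the genes used in clustering (-1.67, 0.0547), and ranged from -1.76 to -1.52 with libraries left out. Genes called in all were 127 in suprabasal cells, 13 with the same mix of clusters, 81 with doublets kept, 452 without the filter and 30 to 148 with libraries left out. In basal cells 8 became 1 to 101, in upper-follicle cells 1 became 0 to 29 and in hair matrix 0 became 0 to 57. The causes were not tested. Depth limits Krt6b most, with at most 54 UMIs per group in a class. The same-mix alternative was not run for the 2 classes of 1 cluster.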

Other observations

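Outside the 4 keratinocyte classes, cluster 7 held the highest mean Krt17 level, at 11603, 11641 and 11699.9 CPM in EC-SAL and 11003, 9989.9 and 11307 CPM in EC-OVA. Its Krt6a was at 145, 173 and 313 CPM in EC-SAL and 131, 108 and 82.0 CPM in EC-OVA. Neither difference was tested. Cluster 9, with 131 cells in EC-OVA, held Krt6a at 163 to 239 CPM in EC-SAL and 114 to 484 CPM in EC-OVA. Cycling keratinocytes held Krt16 at 326 to 455 CPM in EC-SAL and 527 to 565 CPM in EC-OVA.

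Chondrocytes, which carried Col2a1 at 378 to 450 CPM in EC-SAL and 945 to 1201 CPM in EC-OVA, held Krt16 at 232 to 331 and 265 to 411 CPM, against 16.2 to 19.7 and 5.88 to 8.33 CPM in fibroblasts. Krt17 was also higher in chondrocytes, at 254 to 326 and 117 to 241 CPM, against 41.6 to 49.3 and 18.7 to 24.3 CPM in fibroblasts. Krt16 was found in 13.7 ± 2.02% and 18.3 ± 0.77% of chondrocytes thinned to 2000 UMIs (SD, n = 3 each). The ratio of Krt16 to Krt14 was 0.844 to 5.02 in chondrocytes over the 6 libraries, and 0.0572 to 0.121 in fibroblasts, 0.0281 to 0.0384 in basal and 0.324 to 0.863 in suprabasal cells. The source of these UMIs was not tested.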
